A study of Mus musculus with 8 samples.

Results

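The genes of 2 muscle ubiquitin ligases, Trim63 and Fbxo32, were followed with the transcription factor genes Foxo1, Foxo3 and Klf15 and with the scaffold gene Homer2 in RNA-seq of mouse knee articular cartilage. They were chosen by gene name, all 6 were found among the 20539 genes of the deposited table, and all 6 passed the filter on low values. C57BL/6J mice aged 4 to 5 months, of both sexes, underwent anterior cruciate ligament transection (ACLT) in one hind limb and received antibody at 10 mg/kg by repeated subcutaneous injection. The antibody was either anti-GDF8, a human monoclonal against GDF8 (myostatin), or a placebo antibody, and cartilage was taken on day 7. Each of the 4 groups, called anti-GDF8 ACLT, anti-GDF8 control, placebo ACLT and placebo control, had 2 pools, A and B, each of the RNA of 4 mice. The control was the other, unoperated hind limb of the same mice, which also carried the antibody, and no sham-operated or untreated mice are among these samples. The labels do not say which pools of the limbs share mice, and a p-value measures only the spread between pools.

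Trim63 encodes MuRF1, which attaches ubiquitin to proteins of the contractile apparatus, and Fbxo32 encodes atrogin-1 (MAFbx), the substrate-binding part of an SCF ubiquitin ligase. Both are known as genes that rise in wasting muscle. FoxO transcription factors drive both genes when insulin and IGF1 signaling through AKT is low, since AKT phosphorylation keeps FoxO proteins out of the nucleus. GDF8, made by muscle, signals through SMAD2/3 and opposes AKT in muscle fibers. Klf15 encodes a zinc finger factor induced by glucocorticoids that drives the breakdown of branched-chain amino acids. Homer2 encodes a scaffold that joins receptors and calcium channels and is known to hold back calcium-dependent NFAT signaling.

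Trim63 lies at chr4:134042431-134056940 on the plus strand and Fbxo32 at chr15:58039275-58078328 on the minus strand, in the coordinates of the deposited table, taken to be mm39. In the same coordinates Homer2 lies at chr7:81250229-81357275, Foxo1 at chr3:52175757-52260642, Foxo3 at chr10:42057837-42152751 and Klf15 at chr6:90439558-90452220. The promoter of Trim63 is shown because a FoxO motif and a glucocorticoid receptor half-site stand side by side in it, and that of Trim54, the gene of the related ligase MuRF3, is shown beside it for comparison. The 250 bases before each start are from RefSeq on build GRCm38.p6, at chr4:134314870-134315119 for Trim63 and chr5:31116362-31116611 for Trim54, both on the plus strand. Capitals mark the FoxO motif TGTTTAC and the half-site TGTTCT, searched on both strands, and AGAACA is the half-site on the other strand.
Trim63: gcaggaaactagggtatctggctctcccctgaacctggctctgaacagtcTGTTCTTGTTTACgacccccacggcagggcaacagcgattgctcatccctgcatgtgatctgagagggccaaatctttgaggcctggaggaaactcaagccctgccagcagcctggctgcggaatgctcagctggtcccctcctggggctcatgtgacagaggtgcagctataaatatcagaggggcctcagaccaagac
Trim54: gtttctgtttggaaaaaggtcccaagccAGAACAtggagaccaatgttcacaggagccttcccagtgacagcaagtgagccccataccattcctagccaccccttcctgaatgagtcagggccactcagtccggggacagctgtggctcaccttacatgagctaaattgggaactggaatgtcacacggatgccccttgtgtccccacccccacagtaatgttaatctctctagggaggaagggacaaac

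In Trim63 the half-site spans bases -200 to -195 and the FoxO motif bases -194 to -188 before the start, with no base between them. Of 32851 mouse promoter windows of this length, 3.17% held the FoxO motif, 16.1% the half-site and 0.691% both. The E-box CANNTG, the site of myogenic factors such as MYOD, occurred 3 times in the Trim63 window and 2 times in that of Trim54, and 66.2% of windows held at least 1. Neither marked motif was found in the windows of Foxo1, Foxo3, Klf15 or either of the 2 starts of Homer2. Fbxo32 had no entry in the promoter table. A match is a stretch of letters and was not tested as a binding site.

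The pools held 16.4 to 28.1 M reads (1 M is 1e+06), and values are counts per M reads (CPM). Tissue, title and source name cartilage for every sample, but the treatment tag of the control samples names quadricep. Aggrecan (Acan), a defining cartilage proteoglycan, was at 28.5 to 88.9 CPM, and the 18 chondrocyte markers together took 0.413% to 0.906% of reads. Prg4, the lubricin gene, which synovial lining cells also express, alone had 1202 to 6881 CPM, and without it the chondrocyte markers took 0.118% to 0.401%. Col2a1, the cartilage collagen gene, was at 168 to 1654 CPM. Markers of red cells took 6.95% to 13.2% and those of neutrophils 2.21% to 3.66%. The 11 fibroblast markers took 1.33% and 1.05% of reads in anti-GDF8 ACLT, against 0.344% and 0.801% in anti-GDF8 control, whereas they took 4.43% and 2.46% in placebo ACLT, against 0.663% and 1.36% in placebo control. The 9 macrophage markers took 0.106% and 0.110% in anti-GDF8 ACLT, against 0.0702% and 0.0730% in anti-GDF8 control, whereas they took 0.144% and 0.164% in placebo ACLT, against 0.0737% and 0.0632% in placebo control. Both summed shares were highest in the placebo ACLT pools. Col1a1 and Col1a2 weigh heavily in the fibroblast share, at 7284 and 5480 CPM in placebo control pool B, where Col3a1 was at 116 CPM. Single fibroblast markers differed from the sum. Col3a1 was at 2830 and 2298 CPM in anti-GDF8 ACLT, against 96.8 and 183 CPM in anti-GDF8 control. Pi16 did not rise there, at 90.0 and 67.4 CPM, against 98.9 and 84.8 CPM. The 30 skeletal muscle fiber markers took 0.277% and 4.16% of reads in the anti-GDF8 ACLT pools, against 2.12% and 3.59% in anti-GDF8 control, while they took 0.0748% and 0.0408% in placebo ACLT, against 3.83% and 8.92% in placebo control. Ckm, the muscle creatine kinase, was at 179 and 2144 CPM in anti-GDF8 ACLT, against 1238 and 1867 CPM in anti-GDF8 control. It was at 47.6 and 22.9 CPM in placebo ACLT, against 2639 and 6322 CPM in placebo control. Acta1, skeletal muscle actin, was at 485 and 7506 CPM in anti-GDF8 ACLT, against 3617 and 5994 CPM in anti-GDF8 control, and at 98.4 and 55.1 CPM in placebo ACLT, against 5923 and 18897 CPM in placebo control. Every level of a muscle gene below is therefore read beside these values, and in pools of whole tissue fewer cells of a type and less RNA per cell cannot be told apart.

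Trim63, the MuRF1 gene, had 34.6 and 100.1 CPM in the anti-GDF8 ACLT pools, against 50.1 and 103 CPM in anti-GDF8 control. In placebo ACLT it had 1.89 and 1.71 CPM, against 149 and 445 CPM in placebo control. Both placebo ACLT pools stood below the other 6, at 38 and 44 reads, and the highest pool was 260-fold above the lowest. The exact Poisson 95% intervals of the placebo ACLT pools were 1.34 to 2.60 and 1.24 to 2.30 CPM, which cover counting error only. The mean was 67.3 ± 46.3 CPM in anti-GDF8 ACLT, against 76.8 ± 37.8 CPM in its control, and 1.80 ± 0.130 CPM in placebo ACLT, against 297 ± 209.6 CPM in placebo control (SD, n = 2 pools each). Trim63 fell in ACLT limbs under placebo at a log2 fold change of -7.12 (standard error 0.60, limma adjusted p = 9.4e-04). Under anti-GDF8 the value was -0.29 (standard error 0.60, limma adjusted p = 0.920), with a 95% interval from -1.65 to 1.07. Ckm moved alongside, with log2 fold changes of -1.30 under anti-GDF8 (limma adjusted p = 0.731) and -6.95 under placebo (limma adjusted p = 0.00335).

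Fbxo32, the atrogin-1 gene, had 24.7 and 87.4 CPM in anti-GDF8 ACLT, against 52.9 and 104 CPM in anti-GDF8 control, and 18.0 and 16.4 CPM in placebo ACLT, against 113 and 440.2 CPM in placebo control. Its order of pools from low to high was that of Trim63 without exception (Spearman's rho of 1 over the 8 pools), but it did not go as low, and the highest pool was 26.9-fold above the lowest. It fell in ACLT limbs under placebo at a log2 fold change of -3.70 (standard error 0.69, limma adjusted p = 0.0101). Under anti-GDF8 the value was -0.68 (standard error 0.69, limma adjusted p = 0.810), with a 95% interval from -2.25 to 0.90. The placebo call was lost when placebo ACLT pool A, placebo ACLT pool B or placebo control pool B was left out (limma adjusted p of 0.0710, 0.0649 and 0.0722), with log2 fold changes of -3.77, -3.63 and -2.72.

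**Figure D1:**
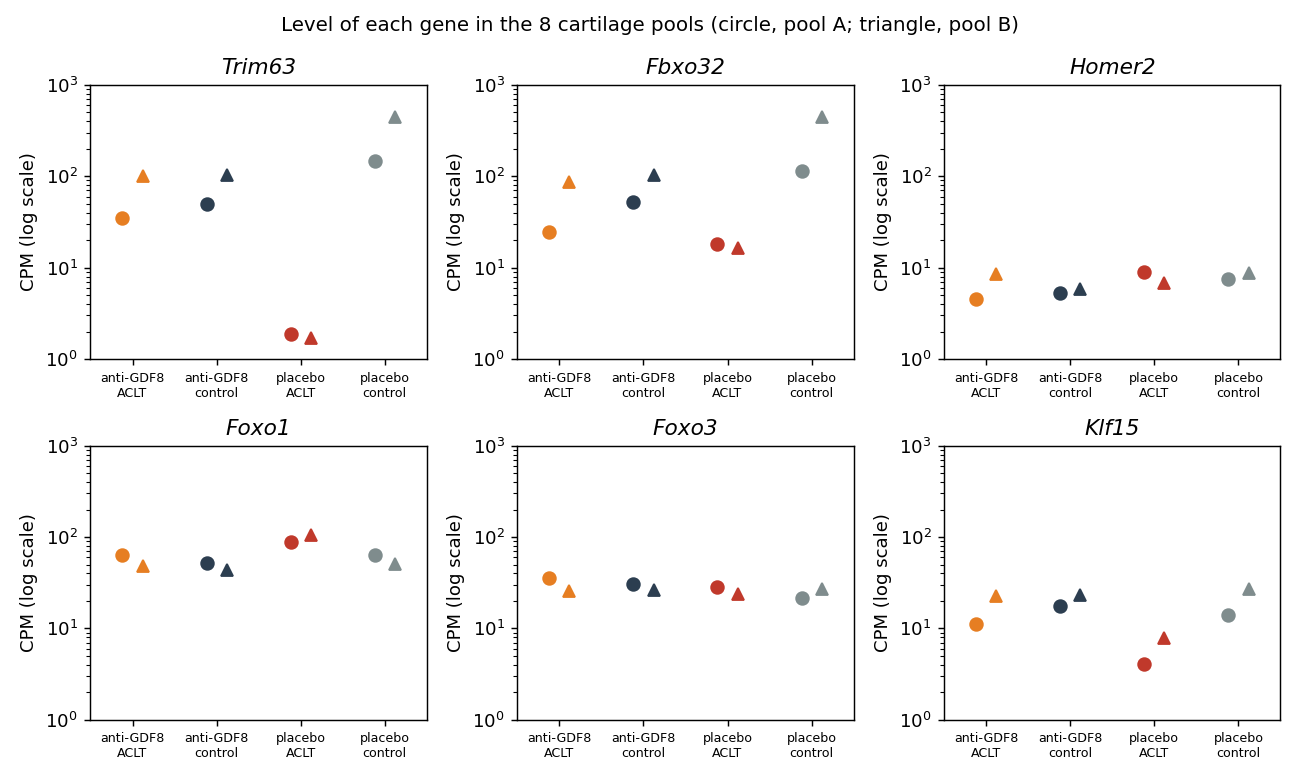
Level of each of the 6 genes in CPM (vertical axis, log scale) in the 8 pools, with the groups on the horizontal axis, circles for pool A and triangles for pool B. Trim63 lay at 1.89 and 1.71 CPM in placebo ACLT and between 34.6 and 445 CPM in the other 6 pools, while Foxo3 and Homer2 stayed within a 1.67-fold and a 1.96-fold range.

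Klf15 had 11.1 and 22.7 CPM in anti-GDF8 ACLT, against 17.5 and 23.5 CPM in anti-GDF8 control, and 4.09 and 7.82 CPM in placebo ACLT, against 14.0 and 26.9 CPM in placebo control. The placebo ACLT pools were again the lowest, and the anti-GDF8 groups overlapped. Klf15 fell in ACLT limbs under placebo at a log2 fold change of -1.77 (standard error 0.45, limma adjusted p = 0.0314), and the value under anti-GDF8 was -0.35 (standard error 0.45, limma adjusted p = 0.854). Without placebo ACLT pool A or placebo control pool B the placebo value was -1.31 or -1.30 (limma adjusted p = 0.202 and 0.185), and without placebo ACLT pool B it was -2.24 (limma adjusted p = 0.0519).

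Foxo1, a FoxO factor of muscle, liver, vessels and cartilage, had 62.9 and 48.2 CPM in anti-GDF8 ACLT, against 51.9 and 43.1 CPM in anti-GDF8 control, and 87.5 and 106 CPM in placebo ACLT, against 63.9 and 50.2 CPM in placebo control. It ran opposite to the ligases, with both placebo ACLT pools above the other 6, as were their shares of fibroblast and macrophage markers, whose part in the Foxo1 level was not tested. Foxo1 rose in ACLT limbs under placebo at a log2 fold change of 0.77 (standard error 0.20, limma adjusted p = 0.0343), against 0.17 for the median of all genes, and the value under anti-GDF8 was 0.22 (standard error 0.20, limma adjusted p = 0.781). After rescaling by a trimmed mean, which moved that median to -0.017, the Foxo1 value was 0.58 (limma adjusted p = 0.0640). The call was lost without either placebo ACLT pool, either anti-GDF8 control pool or placebo control pool B, with values of 0.59 to 0.91 (limma adjusted p of 0.0518 to 0.171).

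Foxo3, the FoxO factor known to be sufficient for atrophy of muscle fibers when active, had 35.5 and 25.8 CPM in anti-GDF8 ACLT, against 30.7 and 26.6 CPM in anti-GDF8 control, and 28.6 and 23.7 CPM in placebo ACLT, against 21.3 and 26.8 CPM in placebo control. The groups overlapped in both limbs and under both antibodies. Its log2 fold change in ACLT limbs was 0.084 under anti-GDF8 (95% interval -0.41 to 0.57, limma adjusted p = 0.937) and 0.12 under placebo (95% interval -0.37 to 0.61, limma adjusted p = 0.737). RNA levels carry no measure of FoxO phosphorylation or location, which set the activity of these factors.

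Homer2 had 4.52 and 8.63 CPM in anti-GDF8 ACLT, against 5.23 and 5.86 CPM in anti-GDF8 control, and 8.87 and 6.76 CPM in placebo ACLT, against 7.50 and 8.68 CPM in placebo control. No limb stood apart from the other, and the lowest and the highest value were both in ACLT pools, anti-GDF8 pool A and placebo pool A. The log2 fold change in ACLT limbs was 0.17 under anti-GDF8 (95% interval -0.59 to 0.94, limma adjusted p = 0.912) and -0.059 under placebo (95% interval -0.82 to 0.70, limma adjusted p = 0.928). Homer2 rested on 86 to 244 reads a pool, and these lay up to 0.102 of a read from whole numbers. How reads that match several genes were counted is not given in the sources used here.

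Under placebo, 4 of the 6 genes were called at an adjusted p under 0.05, 1 higher (Foxo1) and 3 lower (Trim63, Fbxo32, Klf15) in ACLT than in control limbs, where 15.6% of the 17401 tested genes were called, 11.6% higher and 4.03% lower. Both pools of one limb lay beyond both of the other for the same 4 genes, as for 58.3% of tested genes. Only Trim63 was still called when placebo ACLT pool A, placebo ACLT pool B or placebo control pool B was left out. With the mean of the muscle markers as a covariate none of the 6 was called under placebo (limma), and 1 of all genes was. Under that covariate Trim63 had a log2 fold change of -4.12 (limma adjusted p = 0.112) and Fbxo32 one of -0.18 (limma adjusted p = 0.947). Muscle markers took 0.0748% and 0.0408% of reads in placebo ACLT, against 3.83% and 8.92% in placebo control. The covariate thus largely overlaps with the limb under placebo, and this fit cannot separate muscle RNA from the limb. Under anti-GDF8 none of the 6 was called or had an unadjusted p under 0.05 (limma), where 0.609% of all genes were called, 1759 genes had an unadjusted p under 0.05 and 44.0% had pools that did not overlap, against none of the 6.

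Over both antibodies, Trim63 (log2 fold change -3.71, limma adjusted p = 0.00113), Fbxo32 (-2.19, limma adjusted p = 0.0204) and Foxo1 (0.49, limma adjusted p = 0.0494) were called in ACLT against control limbs, where 14.7% of all genes were called, 10.8% higher and 3.91% lower. Klf15 had a value of -1.06 (limma adjusted p = 0.0565), and Homer2 and Foxo3 had values of 0.057 and 0.10. Without placebo ACLT pool A, placebo ACLT pool B, placebo control pool B or anti-GDF8 control pool B, Trim63 alone was called.

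**Figure D2:**
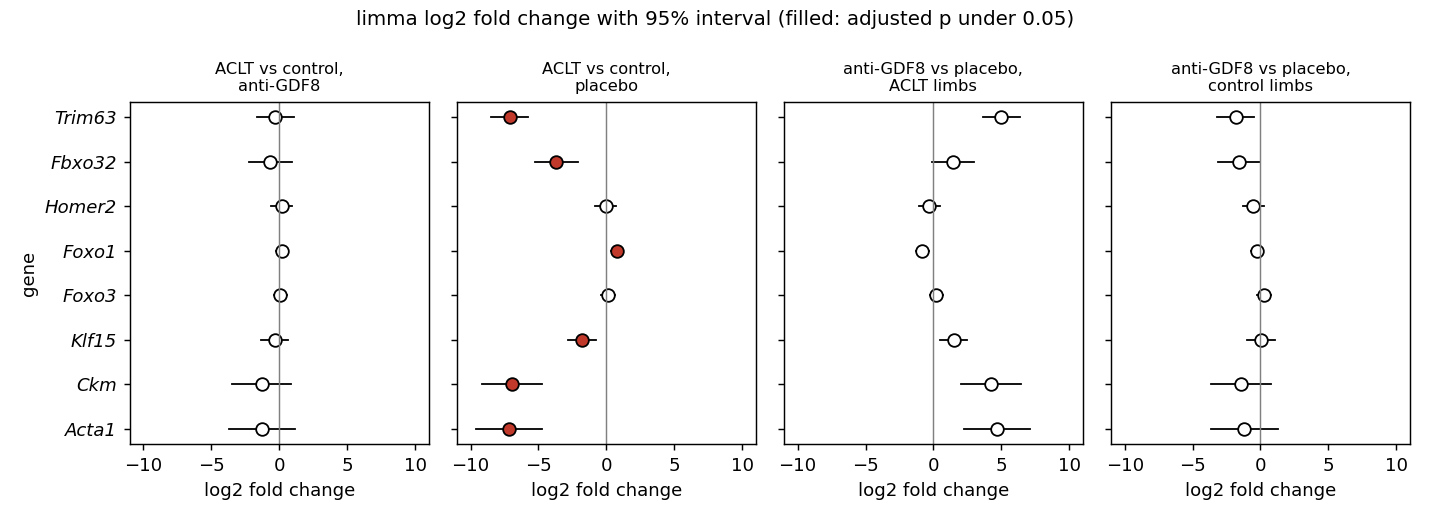
limma log2 fold change (horizontal axis) of the 6 genes and of Ckm and Acta1 with 95% intervals, in 4 comparisons of 2 pools against 2. Filled points have an adjusted p under 0.05, which Trim63, Fbxo32, Foxo1 and Klf15 reached only in ACLT against control limbs under placebo (-7.12, -3.70, 0.77 and -1.77), as did Ckm and Acta1 (-6.95 and -7.17).

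Anti-GDF8 and placebo were then compared within each limb. In ACLT limbs, Trim63 was higher in both anti-GDF8 pools (34.6 and 100.1 CPM) than in both placebo pools (1.89 and 1.71 CPM), at a log2 fold change of 4.99 (standard error 0.60) that did not pass the adjustment over all genes (limma adjusted p = 0.120, unadjusted 1.9e-05). Ckm had a value of 4.23 in the same comparison (limma adjusted p = 0.123). Klf15 had a value of 1.48 (limma adjusted p = 0.168), Fbxo32 one of 1.43 (limma adjusted p = 0.327) and Foxo1 one of -0.81 (limma adjusted p = 0.132). None of the 6 was called, as for 0.0% of all genes, and 3 of the 6 (Trim63, Klf15 and Foxo1) and 3010 of all genes had an unadjusted p under 0.05 (limma). The pools of the 2 antibodies did not overlap for Trim63, Fbxo32, Klf15 and Foxo1, and the same held for 51.9% of all genes. When anti-GDF8 ACLT pool A was left out, the Trim63 value was 5.76 (limma adjusted p = 4.3e-04), and 462 genes were called in all. That fit rests on pool B alone in its group, which is assumed to vary like the other groups.

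In control limbs, Trim63 had a log2 fold change of -1.84 for anti-GDF8 against placebo and Fbxo32 one of -1.59 (limma adjusted p = 0.891 for both). Trim63, Fbxo32 and Homer2 were lower in both anti-GDF8 pools than in both placebo pools, and pools stood apart in either direction for 34.8% of all genes. Of the 6 none was called, as for 0.0% of all genes, and Trim63, Fbxo32 and 791 genes in all had an unadjusted p under 0.05 (limma). The muscle markers took 2.12% and 3.59% of reads in anti-GDF8 control, against 3.83% and 8.92% in placebo control. The drug × injury interaction of Trim63 was 6.83 on the log2 scale (standard error 0.85, limma adjusted p = 0.432, unadjusted 2.5e-05) and that of Fbxo32 was 3.02 (limma adjusted p = 0.449), with none of the 6 and 0.0% of all genes called. At an unadjusted p under 0.05 the interaction held for those 2 of the 6 and for 1799 genes in all. Without anti-GDF8 ACLT pool A the Trim63 interaction was 7.60 (limma adjusted p = 6.1e-04). Over both limbs, anti-GDF8 against placebo called none of the 6 and 0.00575% of all genes (limma), while Trim63 (1.58, limma adjusted p = 0.274), Foxo1 (-0.53, limma adjusted p = 0.272), Klf15 (0.77, limma adjusted p = 0.369) and 2190 genes in all had an unadjusted p under 0.05. Without anti-GDF8 ACLT pool A, Trim63 was called over both limbs at 1.96 (limma adjusted p = 0.0349).

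Each gene was next set against the muscle RNA of its own pool. These ratios of CPM are not corrected for gene length, so they compare pools and not genes. Trim63 was at 19.3% and 4.67% of the Ckm level in anti-GDF8 ACLT, against 4.04% and 5.54% in anti-GDF8 control, and at 3.98% and 7.46% in placebo ACLT, against 5.64% and 7.04% in placebo control. The ratio thus stayed between 3.98% and 7.46% in 7 pools, over which Ckm itself ran from 22.9 to 6322 CPM, and anti-GDF8 ACLT pool A stood above them. The mean log2 ratio was -3.80 ± 1.03 in ACLT and -4.19 ± 0.329 in control pools (SD, n = 4 each), a difference of 0.40 (two-sided exact permutation p = 0.629, adjusted over the 12 ratio tests 0.823). It was -3.90 ± 1.03 in anti-GDF8 and -4.09 ± 0.410 in placebo pools (SD, n = 4 each), a difference of 0.19 (two-sided exact permutation p = 0.886, adjusted 0.886). The smallest p that 4 pools against 4 allow is 0.0286, and limbs of the same mice are treated as separate in these tests.

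Fbxo32 was at 13.8% and 4.08% of the Ckm level in anti-GDF8 ACLT, against 4.27% and 5.59% in anti-GDF8 control, and at 37.8% and 71.4% in placebo ACLT, against 4.29% and 6.96% in placebo control. In contrast to Trim63, both placebo ACLT pools had the highest ratios. The difference between ACLT and control pools was 1.93 on the log2 scale (two-sided exact permutation p = 0.143, adjusted 0.343), and that between anti-GDF8 and placebo pools was -1.48 (two-sided exact permutation p = 0.20, adjusted 0.40). Homer2, Foxo1, Foxo3 and Klf15 also had their highest ratios in placebo ACLT, where Foxo1 was at 184% and 464% of Ckm, against 2.42% and 0.794% in placebo control. Their differences between ACLT and control pools ran from 3.06 for Klf15 to 4.62 for Foxo1 (two-sided exact permutation p of 0.0571 to 0.114, adjusted 0.343 for each). Over both antibodies, the limma log2 fold change in ACLT limbs was -4.12 for Ckm itself. It was 0.057 for Homer2, 0.10 for Foxo3, 0.49 for Foxo1 and -1.06 for Klf15, so these ratio differences largely restate the fall of Ckm. The Fbxo32 level itself fell, at -2.19, so its higher ratio in ACLT pools comes from the larger fall of Ckm and not from a rise of Fbxo32. An adjusted p under 0.05 would need at least 7 of the 12 tests at the smallest p, and if all 6 genes reached it in 1 comparison their adjusted p would be 0.0571, so the adjusted values say little about these ratios.

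**Figure D3:**
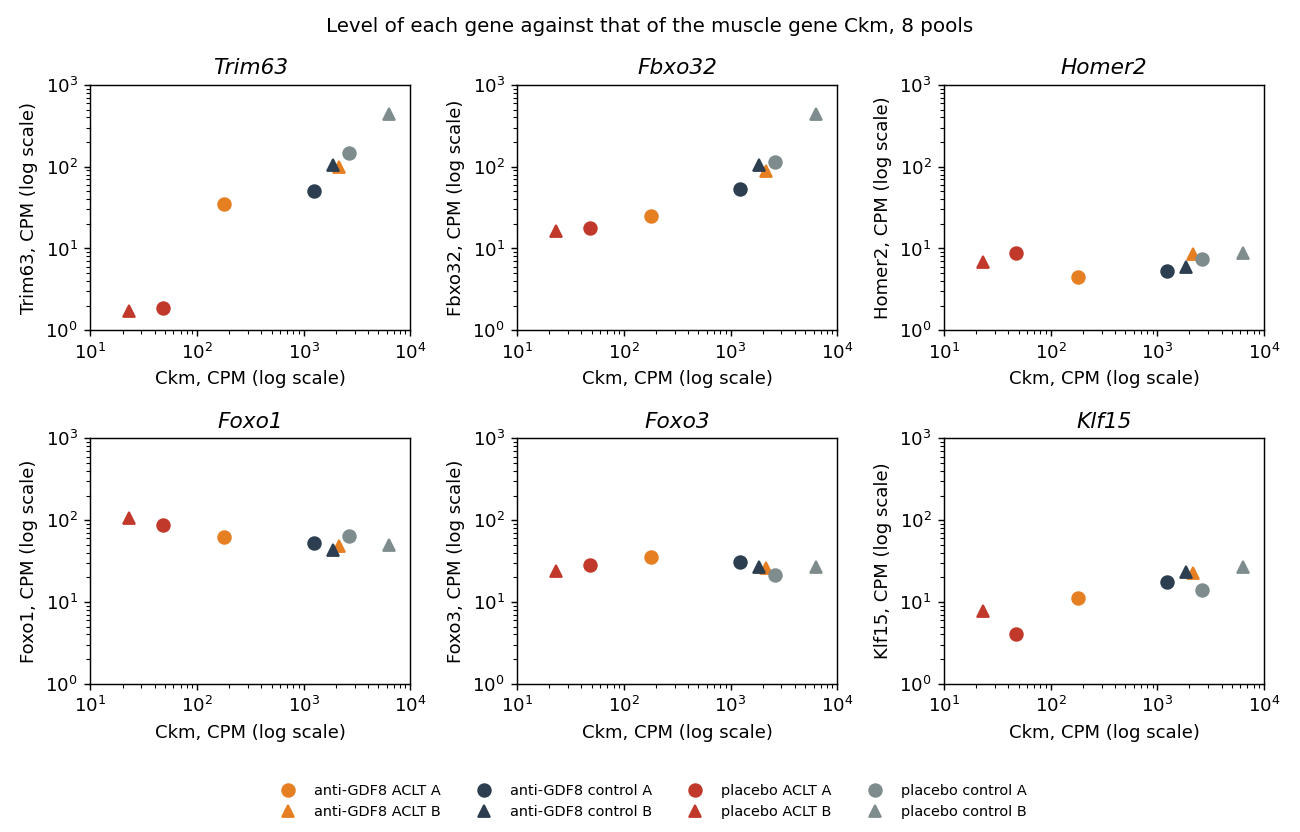
Level of each of the 6 genes (vertical axis, CPM, log scale) against that of Ckm (horizontal axis, CPM, log scale) in the 8 pools, 1 point a pool. Trim63 ran along with Ckm except for anti-GDF8 ACLT pool A at 34.6 CPM, Fbxo32 levelled off at 18.0 and 16.4 CPM in the 2 pools with the least Ckm, and Homer2 and Foxo3 were nearly flat.

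Across the 8 pools, which hold limbs of the same mice, the log2 level of Trim63 correlated with that of Ckm at a Pearson r of 0.969 and that of Fbxo32 at 0.930, given as a description. Klf15 had a coefficient of 0.887, Foxo1 one of -0.881, Foxo3 one of -0.178 and Homer2 one of 0.137. Without the 2 placebo ACLT pools (n = 6), the coefficient was 0.894 for Trim63, 0.929 for Fbxo32, 0.792 for Klf15, -0.445 for Foxo1, -0.752 for Foxo3 and 0.851 for Homer2. Homer2 followed Ckm among the 6 pools with more muscle RNA, while the placebo ACLT pools had 8.87 and 6.76 CPM of it at the lowest Ckm.

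Levels were also ordered between genes per kilobase of exon, taken as the union of all annotated exons of a gene. This union was 12621 bases for Homer2 and 2842 bases for Trim63. Which transcripts were expressed was not tested. A gene whose expressed transcript is shorter than its union is placed too low, so the order holds only for these lengths. In anti-GDF8 ACLT, Trim63 led at 12.2 and 35.2 CPM per kb and overlapped only Fbxo32 (3.54 and 12.5). Foxo1 (7.26 and 5.56), Klf15 (3.97 and 8.13) and Foxo3 (4.69 and 3.41) overlapped Fbxo32, and Homer2 was last at 0.358 and 0.684. In anti-GDF8 control, Trim63 led at 17.6 and 36.4 CPM per kb, followed by Fbxo32 at 7.58 and 14.96, Klf15 at 6.25 and 8.41, Foxo1 at 5.99 and 4.97, Foxo3 at 4.05 and 3.51 and Homer2 at 0.414 and 0.464, where only Fbxo32 and Klf15 overlapped. In placebo ACLT, Foxo1 led at 10.1 and 12.3 CPM per kb, followed by Foxo3 at 3.78 and 3.13, Fbxo32 at 2.58 and 2.35, and Klf15 at 1.46 and 2.80, whose range overlapped that of Fbxo32. Trim63 (0.667 and 0.602) and Homer2 (0.703 and 0.536) overlapped at the low end. In placebo control, Trim63 led at 52.4 and 157 CPM per kb, and overlapped only Fbxo32 at 16.2 and 63.1, so that Trim63 moved from the lower end of the 6 in one limb to the upper end in the other.

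Relatives of these genes were examined next. Trim54, which encodes MuRF3, had 7.70 and 96.8 CPM in anti-GDF8 ACLT, against 48.2 and 88.6 CPM in anti-GDF8 control, and 1.10 and 0.894 CPM in placebo ACLT, against 71.5 and 230.4 CPM in placebo control. It fell in ACLT limbs under placebo by 6.95 on the log2 scale (limma adjusted p = 0.00365), close to Ckm. Trim55, the MuRF2 gene, was at 0.109 and 4.42 CPM in anti-GDF8 ACLT, against 2.13 and 2.62 CPM in anti-GDF8 control, and at 0 and 0.0778 CPM in placebo ACLT, against 2.49 and 6.76 CPM in placebo control (limma adjusted p = 0.0229 under placebo). Of the other Homer genes, Homer1 fell under placebo (-1.30, limma adjusted p = 0.0347) and Homer3 rose (0.85, limma adjusted p = 0.0272). Homer1 had 8.03 and 10.03 CPM in placebo ACLT, against 20.5 and 23.9 CPM in placebo control. Homer3 had 16.7 and 17.0 CPM in placebo ACLT, against 10.4 and 8.37 CPM in placebo control. Under anti-GDF8 the log2 fold changes were -0.25 for Homer1 (limma adjusted p = 0.861) and 0.21 for Homer3 (limma adjusted p = 0.805). Foxo4 was at 0.803 to 1.65 CPM with a placebo value of 0.38 (limma adjusted p = 0.633), and Foxo6 was not found among the genes of the deposited table.

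The ligase genes were also compared with each other within each pool. Trim63 over Fbxo32 was 1.40 and 1.15 in anti-GDF8 ACLT, against 0.946 and 0.991 in anti-GDF8 control, and 0.105 in both placebo ACLT pools, against 1.31 and 1.01 in placebo control. The 2 placebo ACLT pools thus held about the same low ratio, and the other 6 lay within 0.946 to 1.40. Trim63 over Trim54, a pair chosen after the values were seen, was 4.49 and 1.03 in anti-GDF8 ACLT, against 1.04 and 1.17 in anti-GDF8 control, while it was 1.73 and 1.91 in placebo ACLT, against 2.08 and 1.93 in placebo control. In anti-GDF8 ACLT pool A, Trim63 was 18.3-fold and 20.2-fold above placebo ACLT pools A and B, while Ckm was 3.76-fold and 7.80-fold above them, Trim54 7.02-fold and 8.61-fold, and Fbxo32 1.37-fold and 1.51-fold. That pool had 0.277% of its reads in muscle markers, and the part of muscle RNA in these ratios was not tested.

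**Figure D4:**
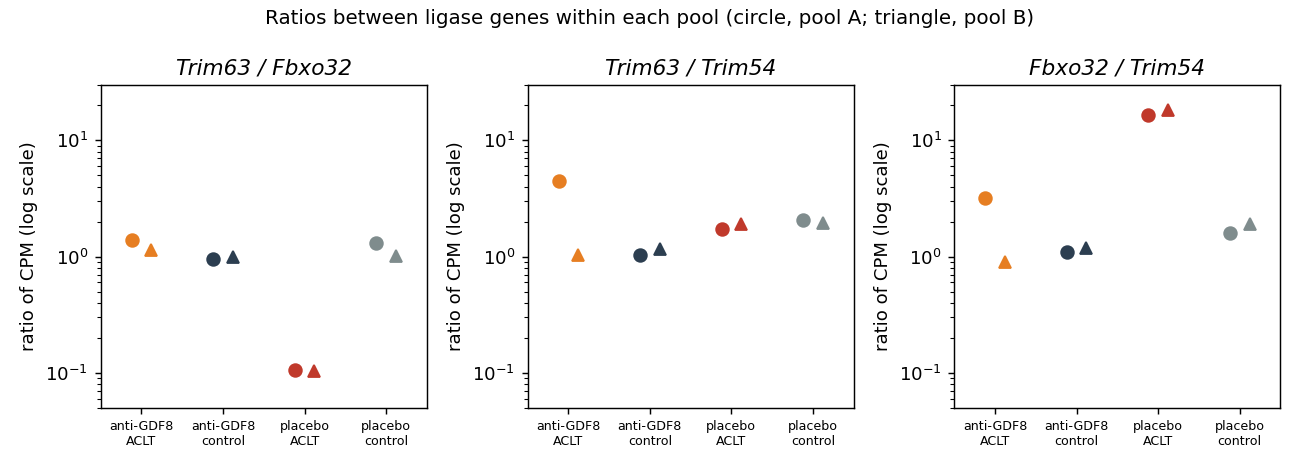
Ratio of CPM between ligase genes within each pool (vertical axis, log scale), with the groups on the horizontal axis, circles for pool A and triangles for pool B. Trim63 over Fbxo32 was 0.105 in both placebo ACLT pools and 0.946 to 1.40 elsewhere, Trim63 over Trim54 was highest in anti-GDF8 ACLT pool A at 4.49, and Fbxo32 over Trim54 was highest in placebo ACLT at 16.4 and 18.3.

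Genes of the pathways around these members were counted in lists, with the list median to be read beside 0.17, the median over all genes on the log2 scale under placebo. The counts are to be read beside the 11.6% of all tested genes that were higher and the 4.03% that were lower in ACLT limbs under placebo, and no list was tested as a set. The muscle fiber markers fell in the same comparison (list median -6.26), and the part of muscle RNA in the falls given below was not tested. Of 20 other muscle ubiquitin ligases, 1 rose and 6 fell in ACLT limbs under placebo (list median -0.36). Asb2 (-5.74, limma adjusted p = 0.00406) and Asb5 (-5.24, limma adjusted p = 0.00698), substrate receptors of cullin ligases, and Fbxo40 (-6.28, limma adjusted p = 0.00960), an F-box protein of muscle, fell. Stub1, which encodes the chaperone-linked ligase CHIP, rose (0.89, limma adjusted p = 0.00852). Of 41 genes of ubiquitin and the proteasome, none rose and 2 fell (list median 0.068), namely the conjugating enzymes Ube2b (-0.65, limma adjusted p = 0.0164) and Ube2g1 (-0.72, limma adjusted p = 0.0429).

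Of 17 autophagy genes known to be under FoxO control, 2 rose and 2 fell under placebo (list median -0.34). The lysosomal protease gene Ctsl (1.78, limma adjusted p = 0.00200) and Gabarap (0.77, limma adjusted p = 0.00777), of the autophagosome membrane, rose where the fibroblast and macrophage markers were also highest, and their part was not tested, while Tfeb (-0.68, limma adjusted p = 0.0338) and Pink1 (-1.04, limma adjusted p = 0.0494) fell. Of 18 other FoxO target genes, 2 rose and 4 fell (list median -0.096). The cell cycle inhibitor gene Cdkn1a (1.24, limma adjusted p = 0.00285) and Sesn3 (1.11, limma adjusted p = 0.0254) rose, and Pdk4 (-4.28, limma adjusted p = 0.00398), the kinase that shuts pyruvate dehydrogenase, and Prdx3 (-0.62, limma adjusted p = 0.0369) fell.

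Of 15 glucocorticoid-responsive genes, 3 rose and none fell under placebo (list median 0.19). They were the metallothionein genes Mt1 (1.75, limma adjusted p = 9.5e-04) and Mt2 (2.10, limma adjusted p = 0.00149) and Errfi1 (2.00, limma adjusted p = 0.0101). Of 14 genes of branched-chain amino acid use and KLF15 targets, none rose and 4 fell (list median -0.52). The glucose transporter gene Slc2a4 (-2.92, limma adjusted p = 0.0105) and the alanine aminotransferase genes Gpt2 (-2.98, limma adjusted p = 0.0136) and Gpt (-1.32, limma adjusted p = 0.0448) fell, as did Acss1 (-0.94, limma adjusted p = 0.0231).

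Of 20 genes of insulin, AKT and GDF8 signaling, 1 rose and 1 fell under placebo (list median 0.022). Igf1, which acts through AKT against FoxO factors, rose beside the same markers (2.52, limma adjusted p = 9.96e-04), and Mstn, which encodes GDF8, fell (-4.16, limma adjusted p = 0.0298). Mstn had 0.470 and 8.03 CPM in anti-GDF8 ACLT, against 3.89 and 7.22 CPM in anti-GDF8 control, and 1.30 and 1.48 CPM in placebo ACLT, against 17.2 and 38.1 CPM in placebo control. It was lowest in anti-GDF8 ACLT pool A and highest in the placebo control pools. Of 16 tested calcium and NFAT partners of Homer proteins, 2 rose and 2 fell (list median -0.051). Nfatc4 (1.85, limma adjusted p = 0.00353) and the calcineurin regulator gene Rcan1 (1.20, limma adjusted p = 0.00353) rose. Stim1 (-0.77, limma adjusted p = 0.020) and the calcium channel gene Itpr1 (-0.51, limma adjusted p = 0.0399) fell, beside a Homer2 value of -0.059.

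Under anti-GDF8, calls in these lists between ACLT and control limbs were limited to Mt2 (2.23, limma adjusted p = 0.0146), Mt1 (1.29, limma adjusted p = 0.0157) and Igf1 (1.70, limma adjusted p = 0.0232), all higher. No gene of the lists was called for anti-GDF8 against placebo in either limb or for the interaction (limma), where none of all genes was called either. Of the 30 muscle fiber markers, 26 fell in ACLT limbs under placebo (list median -6.26) and none was called under anti-GDF8 (list median -1.40). All 30 had a positive value for anti-GDF8 against placebo in ACLT limbs (list median 3.92), and none was called.

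For each member the 3 genes with the most similar levels over the 8 pools were taken among 12045 genes of at least 5 CPM, by Pearson's r of log2 levels, as a description. For Trim63 these were Tspan8 (r = 0.988), the mitochondrial uncoupling protein gene Ucp3 (0.986) and Myf6 (0.982), a myogenic transcription factor gene. Ucp3 had 6.91 and 28.4 CPM in anti-GDF8 ACLT, against 26.6 and 30.1 CPM in anti-GDF8 control, and 1.25 and 0.894 CPM in placebo ACLT, against 44.5 and 120 CPM in placebo control. For Fbxo32 they were Chrnb1 (0.991), a subunit gene of the acetylcholine receptor, Aimp2 (0.991) and Grsf1 (0.990), and for Klf15 they were Slc2a4 (0.982), Acadl (0.981), an enzyme gene of fat oxidation, and Pla2g12a (0.980). For Foxo1 they were Hddc2 (0.983), Igip (0.979) and Xxylt1 (0.978), for Foxo3 they included Maz (0.976) and Gatad2b (0.944), and for Homer2 they were Rai2 (0.976), Cisd3 (0.957) and Mrps28 (0.954). A coefficient over 0.9 was reached by 3.40% of genes with Fbxo32, 2.32% with Trim63, 2.07% with Klf15, 1.503% with Foxo1, 0.166% with Homer2 and 0.0747% with Foxo3.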

How the data were processed

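Cartilage RNA was extracted by the authors with TRI Reagent and a column kit. STAR 2.7.3a, DESeq2 and Partek are named in the submitters' processing notes, as are 2 builds, mm39 and mm10, with no step given for any. The deposited values are CPM, computed by the authors, and each pool adds up to 1e+06. Of 20494 genes matched to GENCODE M21 (GRCm38), 2.23% shared its start, so the coordinates were taken to be mm39. The value of 1 read, from the step between low values, gave the depths. Whole reads were not recovered for all genes, so no count test was run.

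Values were scaled to the median depth (20.1 M reads, 1 M being 1e+06), and log2 was taken after adding 1 (0.0498 CPM). Genes averaging under 10 (0.498 CPM) were left out. One limma 3.58.1 model in R 4.3.3 held the 4 groups and 8 pools (intensity trend), with Benjamini-Hochberg adjustment over 17401 genes and a threshold of 0.05. A fold change on this scale understates the change of genes with few reads. Ratios were compared by exact permutation in Python 3.11.15. The fit was tested on simulated data. Exon lengths are from GENCODE M21.

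The members, the 10 lists and the tests were chosen with earlier results of these data known. Named are the members, Ckm, Acta1, family genes, up to 4 called genes a list with the smallest adjusted p under placebo, and the 3 most similar genes a member, of which 1 is not reported here. Alternatives were quantile and trimmed mean scaling, other filters, other pseudocounts, no trend, robust estimates, only the pools compared, replicate blocks, a muscle covariate, other denominators and each pool left out.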

Additional observations from a re-analysis of the deposited data

Results flagged for a closer look

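In 3 cases 1 pool lay far from the other 3 of its antibody, and each time it was anti-GDF8 ACLT pool A among the 4 anti-GDF8 pools. For the ratio of Trim63 to Trim54, a pair chosen after the data were seen, it stood at 4.49, against 1.03, 1.04 and 1.17 in the other anti-GDF8 pools, and its gap to the nearest took 0.9175 of the range on the log2 scale, where 0.829 is the limit for 4 values. For the ratio of Homer2 to Ckm it stood at 2.53%, against 0.314% to 0.422%, with a gap of 0.8572 of the range. For the ratio of Klf15 to Ckm it stood at 6.19%, against 1.06% to 1.41%, with a gap of 0.8375 of the range. In all, 72 sets of 4 pools were examined. About 1 in 20 sets of 4 independent values would pass the limit by chance. These sets share pools and denominators and each mixes 2 groups, so the 3 flags cannot be weighed against that rate. The pool had 0.277% of its reads in muscle markers, against 2.12% to 4.16% in the other anti-GDF8 pools, and the part of muscle RNA in these values was not tested.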

How the results depend on the processing

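Under placebo, the 4 called genes were 2 without an intensity trend (Trim63 and Fbxo32), 0 with the muscle covariate and 1 to 4 as each pool was left out. Over both antibodies, the 3 called were 1 without a trend, 0 with the muscle covariate and 1 to 4 with a pool left out. With the muscle covariate, the sign of called values turned for Foxo1 under placebo (-0.019) and over both antibodies (-0.0031) and for Fbxo32 over both antibodies (0.032). That covariate largely overlaps with the limb under placebo, so its fit cannot separate muscle RNA from the limb. For anti-GDF8 against placebo in ACLT limbs and over both limbs, and for the interaction, 0 to 1 of the 6 genes were called as each pool was left out. Pool letters were not taken as pairs, since no label ties them to mice and the deviations of equal letters correlated at 0.0032 to 0.296 over pairs of groups. With a replicate block by letter, 1 of the 6, Trim63, was called in ACLT limbs (4.99, adjusted p = 0.0114) and 1, again Trim63, in the interaction (6.83, adjusted p = 0.0148). Fbxo32 under placebo had an adjusted p of 0.0770 with robust estimates. Over these settings, 728 fold changes of single members kept their sign and their side of the threshold, 37 lost significance, 10 gained it and 47 turned in sign, of which 44 were called in neither fit. The uncalled values that turned with the muscle covariate, for ACLT against control, were Homer2 (1.34) and Foxo3 (-0.31) under placebo, Trim63 (0.50), Fbxo32 (0.25), Foxo3 (-0.031) and Klf15 (0.084) under anti-GDF8 and Foxo3 (-0.17) over both, and further Fbxo32 between antibodies in ACLT limbs (-0.67) and the interactions of Homer2 (-0.80), Foxo1 (0.032) and Foxo3 (0.28). With trimmed mean rescaling and with quantile normalization, Foxo3 under placebo turned (-0.060 and -0.010), as did its interaction (0.17 and 0.10) and Homer2 over both antibodies (-0.019 and -0.054), and with the first also Klf15 between antibodies in control limbs (-0.042). With a pool left out, values for ACLT against control crossed 0 under placebo for Homer2 (-0.25 to 0.14) and Foxo3 (-0.044 to 0.29), under anti-GDF8 for Trim63 (-1.06 to 0.48), Fbxo32 (-1.59 to 0.23), Homer2 (-0.29 to 0.64), Foxo3 (-0.15 to 0.31) and Klf15 (-0.87 to 0.16), and over both for Homer2 (-0.17 to 0.29) and Foxo3 (-0.011 to 0.22). They also did between antibodies in ACLT limbs for Homer2 (-0.77 to 0.15) and Foxo3 (-0.012 to 0.45), in control limbs for Klf15 (-0.41 to 0.53), over both limbs for Fbxo32 (-0.57 to 0.41), and in the interaction for Homer2 (-0.23 to 0.70) and Foxo3 (-0.27 to 0.19). Of the ratios to Ckm, 7 of 144 values turned, for Trim63 between antibodies with Acta1 (-0.16), the summed markers (-0.0030) or Trim54 (-0.31) as denominator, and with a pool left out for Trim63 (-0.31 to 0.44), Foxo3 (-2.50 to 0.14) and Klf15 (-1.54 to 0.56) between antibodies and Trim63 between limbs (-0.078 to 0.68), and a side of the threshold says little there. The cause of these turns was not tested. Of all genes, 2712 were called under placebo, and 1675 without a trend, 1 with the muscle covariate and 678 to 3010 with a pool left out. Under anti-GDF8, 106 were called, and 180 after trimmed mean rescaling, 172 after quantile normalization, 2 without a trend and 1 to 368 with a pool left out. Over both antibodies, 2565 were called, and 1503 without a trend, 107 with the covariate and 1076 to 2867 with a pool left out. With a pool left out, anti-GDF8 against placebo called 0 to 462 genes in ACLT limbs, 0 to 1 in control limbs and 0 to 235 over both, and the interaction 0 to 305. Over both limbs, where 1 gene was called, the other settings called 0 to 10. Trim63 in placebo ACLT rests on 38 and 44 reads.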
